A study of Homo sapiens with 6 samples.

Results

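Among miRNAs measured in exosomes of human embryonic stem (ES) cells, 10 that are rich in G and C bases and are often described as bright in exosome preparations were followed here: hsa-miR-638, hsa-miR-663a, hsa-miR-1202, hsa-miR-1207-5p, hsa-miR-1268a, hsa-miR-1275, hsa-miR-1915-3p, hsa-miR-2861, hsa-miR-3665 and hsa-miR-3960. They were chosen by name, with earlier results of these data known, and make up 10 of the 2549 human miRNAs on the array. Exosomes came from the medium of H9, an established human ES cell line, which had been moved from vitronectin to Matrigel and then held colonies of different appearance, called substate 1 and substate 2. Each of 3 experiments gave 1 array per substate, so that every group held 3 arrays. Substate 1 was taken at passages 41, 46 and 50 and substate 2 at passages 52, 61 and 65, in experiments 1, 2 and 3, with 72.4, 100 and 51.4 ng of RNA labelled for both arrays of the respective experiment. Passage was higher in substate 2 in every experiment, and passage and substate cannot be told apart. Amount, experiment and, in part, slide cannot be told apart either, since experiment 1 was on slide 1 and experiments 2 and 3 were on slide 2. With so few arrays, their number limits how precise the values are.

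miRNAs are short RNAs that guide Argonaute proteins to messenger RNAs, mainly by pairing through the seed near their 5′ end. Exosomes, membrane-bound particles shed into the culture medium, carry a part of them. Duplexes rich in G and C are more stable than those rich in A and U, and the signal of an array probe depends on how well its target binds, so ranks and shares given here are of signal and not of amount.

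Mature sequences from RefSeq (GRCh38.p14) were matched by name for 8 of the 10 miRNAs. They are shown 5′ to 3′ because base composition is what the members share, with the seed (bases 2 to 8) in capitals. The line of hsa-miR-302a-3p, a miRNA typical of human ES cells, is given for contrast, and that of hsa-miR-8069 because it was the brightest human miRNA on all 6 arrays.
hsa-miR-638: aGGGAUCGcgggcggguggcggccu
hsa-miR-2861: gGGGCCUGgcggugggcgg
hsa-miR-1915-3p: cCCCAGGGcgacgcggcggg
hsa-miR-3665: aGCAGGUGcggggcggcg
hsa-miR-663a: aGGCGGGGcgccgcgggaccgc
hsa-miR-1202: gUGCCAGCugcagugggggag
hsa-miR-1268a: cGGGCGUGgugguggggg
hsa-miR-1275: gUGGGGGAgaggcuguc
hsa-miR-8069: gGAUGGUUgggggcggucggcgu
hsa-miR-302a-3p: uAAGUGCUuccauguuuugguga

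The members lie on different chromosomes for the most part. hsa-miR-638 is at chr19:10718419-10718443 on the plus strand, hsa-miR-2861 at chr9:127785971-127785989 on the plus strand, hsa-miR-1915-3p at chr10:21496576-21496595 on the minus strand and hsa-miR-3665 at chr13:77698075-77698092 on the minus strand. hsa-miR-663a is at chr20:26208243-26208264 on the minus strand and hsa-miR-1268a at chr15:22225308-22225325 on the minus strand. hsa-miR-1202 and hsa-miR-1275 are both on chromosome 6, at chr6:155946809-155946829 on the plus strand and chr6:34000018-34000034 on the minus strand. In the RefSeq annotation the genes MIR2861 and MIR3960 are neighbours on chromosome 9.

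G plus C made up between 70.6% of hsa-miR-1275 and 90.9% of hsa-miR-663a, with a median of 83.3% over the 8 sequences. The median was 60.9% over 242 miRNAs detected on all 6 arrays and 52.2% over 2248 miRNAs of the array that matched the reference. All 8 sequences held the motif GGG, against 56.2% of those 242 miRNAs. The motif GGCGG was in 5 of the 8 (hsa-miR-638, hsa-miR-663a, hsa-miR-1915-3p, hsa-miR-2861 and hsa-miR-3665) and in 13.2% of the 242, while the longest run of G was 5 in hsa-miR-1202, hsa-miR-1268a and hsa-miR-1275, which lacked it. No 2 of the 8 shared a seed. Among the 242 miRNAs, which are those with a matched sequence, the only other one with a seed of these 8 was hsa-miR-1268b, with that of hsa-miR-1268a. The seeds of hsa-miR-1207-5p and hsa-miR-3960 were not compared, as their sequences were not matched.

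All 10 members were detected on all 6 arrays, as were 289 of the 2549 miRNAs. The brightest by far was hsa-miR-3960, which together with its neighbour hsa-miR-2861 is known from osteoblast differentiation. Its total signal, the background-subtracted intensity summed over the probes of a miRNA, was 952, 1555 and 579 in substate 1 and 657, 1082 and 601 in substate 2 (experiments 1, 2 and 3). These signals put it at ranks 13, 6 and 9 in substate 1 and 7, 8 and 7 in substate 2 of all human miRNAs. In experiment 3 alone its unscaled signal was higher in substate 2. Total signals contain a spot size, which the image software estimated for substate 1 of experiment 1 (0.791) and set to its default (0.6) on the other 5 arrays. This makes unscaled signals of that array 1.32 times as high as at the default, while ranks, shares and scaled values are not changed by it. Unscaled values are given as deposited, and also at the default where a statement depends on it.

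hsa-miR-2861 followed at a distance, with total signals of 219, 362 and 181 in substate 1 and 97.8, 223 and 110 in substate 2. Its rank lay between 25 and 43 in substate 1 and between 28 and 49 in substate 2. hsa-miR-638 had signals of 137, 258 and 135 in substate 1 and 62.5, 168 and 81.0 in substate 2, with ranks from 36 to 63 and from 38 to 64. Both miRNAs were dimmer in substate 2 of every experiment before scaling, and the unscaled substates overlapped.

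The other members with the GGCGG motif ranged widely in signal. hsa-miR-1915-3p gave 123, 182 and 88.4 in substate 1 and 98.7, 151 and 84.2 in substate 2. hsa-miR-3665 gave 107, 154 and 78.9 in substate 1 and 56.8, 114 and 64.9 in substate 2. hsa-miR-663a was the dimmest member, at 16.3, 24.6 and 6.97 in substate 1 and 10.5, 9.99 and 5.50 in substate 2, and ranked between 130 and 189. The substates of these 3 miRNAs overlapped in signal.

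hsa-miR-1202 and hsa-miR-1275, which carry long runs of G, had similar ranks. The signals of hsa-miR-1202 were 102, 116 and 49.7 in substate 1 and 43.8, 58.6 and 26.6 in substate 2, and those of hsa-miR-1275 were 125, 81.0 and 41.9 in substate 1 and 49.0, 51.4 and 23.3 in substate 2. hsa-miR-1268a gave 84.1, 61.3 and 22.7 in substate 1 and 28.5, 28.1 and 10.6 in substate 2. For hsa-miR-1268a and hsa-miR-1275, unlike most members, substate 1 was brightest in experiment 1. hsa-miR-1207-5p gave 143, 178 and 77.0 in substate 1 and 58.1, 110 and 52.2 in substate 2. Over the 10 members and 3 experiments, 29 of 30 unscaled signals were lower in substate 2 than in substate 1, and 28 of 30 at the default spot size, where hsa-miR-1915-3p in experiment 1 was 93.2 in substate 1 and 98.7 in substate 2. The arrays of substate 2 were dimmer as a whole, and their summed signal was 0.556, 0.758 and 0.625 of that of substate 1 in experiments 1, 2 and 3, with 0.733 in experiment 1 at the default spot size.

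**Figure D1:**
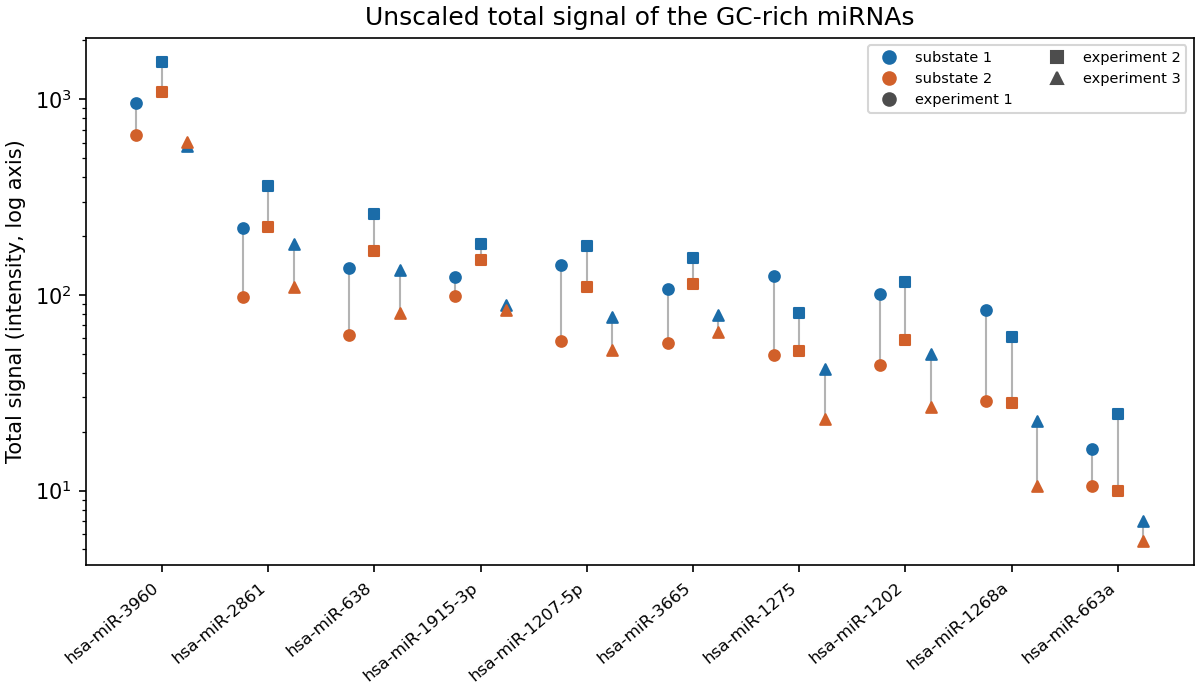
Unscaled total signal as deposited (intensity, log axis) of the 10 GC-rich miRNAs, ordered by highest signal. Colours give the substate and symbols the experiment, and grey lines join the 2 arrays of an experiment; hsa-miR-3960 lies above all others on every array and hsa-miR-663a below.

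The share of the 10 miRNAs in the summed signal of all detected human miRNAs was small. In substate 1 it was 2.26%, 4.22% and 3.27% in experiments 1, 2 and 3, with a mean of 3.25% ± 0.981 (SD, n = 3). In substate 2 it was 2.35%, 3.74% and 4.39%, with a mean of 3.50% ± 1.04 (SD, n = 3). The ratio of substate 2 to substate 1 was 1.04, 0.886 and 1.34, so that it was above 1 in experiments 1 and 3 and below 1 in experiment 2, and the means differed by less than the spread between experiments.

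hsa-miR-3960 alone made up between 45.9% and 56.8% of the members' summed signal. The percentage was 47.4, 52.3 and 45.9 in substate 1 and 56.5, 54.2 and 56.8 in substate 2. It was higher in substate 2 of each experiment. Its own share of all signal ran from 1.07% to 2.49%, and that of hsa-miR-2861 from 0.198% to 0.515%.

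The total is dominated by hsa-miR-8069, which held between 33.6% and 52.5% of all signal. Without it the share of the members was 3.72%, 7.86% and 5.69% in substate 1 and 4.96%, 5.63% and 7.17% in substate 2. The means were then 5.76% ± 2.07 and 5.92% ± 1.13 (SD, n = 3). The other miRNAs of best mean rank were hsa-miR-1246, hsa-miR-6089, hsa-miR-7641 and hsa-miR-4459, with mean ranks of 2.17, 3.50, 4.33 and 5.17, ahead of hsa-miR-3960.

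**Figure D2:**
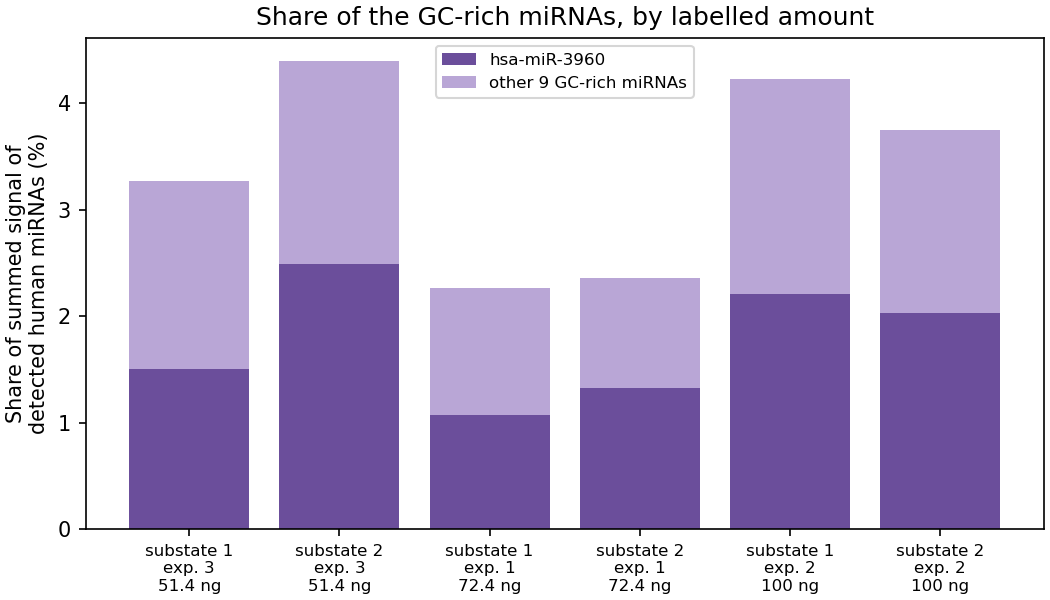
Share of the GC-rich miRNAs in the summed signal of detected human miRNAs (%), per array, ordered by labelled amount; dark bars are hsa-miR-3960 and light bars the other members. The lowest shares, 2.26% and 2.35%, belong to experiment 1, and shares do not follow the amount.

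Signals were set against the labelled amount within each substate, as values and without a test, since there is 1 array for each amount. In substate 1, 8 of the 10 members were in the order of the amount, against 63 of 289 miRNAs detected on all 6 arrays (21.8%). The exceptions were hsa-miR-1268a and hsa-miR-1275. At the default spot size hsa-miR-638 and hsa-miR-2861 joined them, which left 6 of the 10, against 125 of the 289 (43.3%). In substate 2, 5 of the 10 were in that order, against 195 of the 289 (67.5%). The exceptions were hsa-miR-663a and hsa-miR-1268a, with 100 ng just below 72.4 ng, and hsa-miR-638, hsa-miR-2861 and hsa-miR-3665, with 72.4 ng below 51.4 ng. Of 21 other GC-rich miRNAs detected on all 6 arrays, 15 were in that order in substate 1 and 15 in substate 2 (71.4% each), and 16 in substate 1 at the default spot size (76.2%). These differences were not tested.

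The labelled amounts differed 1.95-fold between experiments 2 and 3. The median ratio of signal between these experiments was 2.18 over the members in substate 1 and 2.05 in substate 2, and 2.01 and 2.46 over the 289 miRNAs. Between experiments 1 and 3 the amounts differed 1.41-fold, and the median ratio of the members was 1.75 in substate 1 and 1.14 in substate 2, below 2.70 and 1.96 over the 289. In substate 1 these were 1.33 and 2.05 at the default spot size. The latter comparison also runs across slides and versions of the image software, whose part was not tested.

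Substate differences were computed on signals divided by the 99th percentile of each array, as log2 values of substate 2 minus substate 1. A miRNA counted as called where it differed 2-fold or more and its p from limma, adjusted by Benjamini-Hochberg, lay below 0.05. Of 474 tested miRNAs, 0 were called higher (0%) and 0 lower (0%), with 0.139 as the lowest adjusted p from limma. Without adjustment, 46 had a p under 0.05 and were higher (9.7%), and 63 were lower (13.3%). The methods' paired t-test was run on the values used here and not on the study's own, over miRNAs at least 2-fold apart. With Storey's q, a choice made here, 23 were higher and 22 lower, and with Benjamini-Hochberg adjustment 0 in either direction. Storey's q depends on the share of p-values above 0.5, which the 2-fold filter lowers beforehand. The 23 and 22 can therefore not be read as evidence of change. The members' differences were all under 2-fold on this scale, so none entered this test. Divided by the labelled amount, hsa-miR-1268a (-1.26) and hsa-miR-1202 (-1.03) were past 2-fold, where the median of all tested was -0.51. At the default spot size these were -1.13, -0.90 and -0.38.

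At an unadjusted p under 0.05, 5 of the 10 members were lower in substate 2 (hsa-miR-638, hsa-miR-1202, hsa-miR-1268a, hsa-miR-1275 and hsa-miR-2861) and 0 higher. Over all tested miRNAs 13.3% were lower and 9.7% higher at that p. The members' count of 5 was between 1 and 2 when an experiment was left out (1 without experiment 1 or 3 and 2 without experiment 2), and 0 with the deposited log2 values. The shares over all tested under these settings were not computed. The median difference was -0.28 over the members, -0.01 over all tested miRNAs and -0.05 over those detected on all 6 arrays, as the members were. It was -0.32, -0.34 and -0.12 over the members in experiments 1, 2 and 3, against -0.04, 0 and 0 over all tested.

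hsa-miR-1268a had the lowest difference of the members. Its scaled log2 value was -2.67 ± 0.27 in substate 1 and -3.37 ± 0.17 in substate 2 (SD, n = 3), and the groups did not overlap. The difference was -0.74, -0.79 and -0.58 in the 3 experiments and -0.70 on average, with a standard error of 0.089 and a limma adjusted p of 0.139. With normexp background correction, which added an offset of 50 to each spot, it was -0.14, and 3 members were then lower. Such an offset narrows log2 differences of dim signals. The spot means of the dimmer of the 2 probes of hsa-miR-1268a ran from 20.6 to 85.1. With normexp the median of all tested miRNAs moved to 0.39. Relative to that median hsa-miR-1268a lay at -0.54, against -0.69 in the main scaling. hsa-miR-1202, a primate miRNA studied in the brain, differed by -0.39, -0.65 and -0.38, on average -0.47 (limma adjusted p = 0.178). hsa-miR-1275 differed by -0.52, -0.32 and -0.32, on average -0.39 (limma adjusted p = 0.193). With normexp the difference of hsa-miR-1202 was -0.22, and that of hsa-miR-1275 was just above 0, at 0.0031. Relative to the median of all tested they lay at -0.61 and -0.39, against -0.46 and -0.38 in the main scaling. The substates of these 3 members did not overlap, against 67 of the 474 tested miRNAs that did not overlap and were lower (14.1%) and 56 that were higher (11.8%). Of the 474, 289 were detected on all 6 arrays, as the members were, and the shares over these 289 were not computed.

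hsa-miR-638 and hsa-miR-2861 had similar differences in the main scaling. They were -0.31, -0.29 and -0.21 for hsa-miR-638, on average -0.27 (limma adjusted p = 0.203), and -0.34, -0.37 and -0.20 for hsa-miR-2861, on average -0.30 (limma adjusted p = 0.203). hsa-miR-1207-5p differed by -0.47, -0.36 and -0.04, on average -0.29 (limma adjusted p = 0.274). All 3 were below 0 in each experiment, and the levels of the substates overlapped. Quantile normalisation gave averages of -0.058 for hsa-miR-638, -0.26 for hsa-miR-2861 and -0.11 for hsa-miR-1207-5p.

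hsa-miR-1915-3p stood on the other side. Its scaled log2 value was -1.32 ± 0.55 in substate 1 and -0.97 ± 0.44 in substate 2 (SD, n = 3). The difference was 0.51, 0.07 and 0.46, on average 0.34 (limma adjusted p = 0.255). It was the only member above 0 in all 3 experiments, and the substates overlapped. With the labelled amount as divisor in place of the percentile its difference was -0.22, but the median of all tested miRNAs moved to -0.51, and it lay 0.29 above that median and was again the highest member. At the default spot size, an alternative chosen after seeing the data, these were -0.08 and -0.38. Normexp gave hsa-miR-1915-3p 0.40 and the median of all tested miRNAs 0.39. It was then still the highest member but lay only 0.012 above that median, against 0.36 in the main scaling.

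For hsa-miR-3960 the difference was 0.29, -0.19 and 0.58, on average 0.23 (limma adjusted p = 0.478). hsa-miR-3665 gave -0.09, -0.10 and 0.24, on average 0.02 (limma adjusted p = 0.944), and hsa-miR-663a gave 0.19, -0.96 and 0.18, on average -0.20 (limma adjusted p = 0.718). The sign of these 3 miRNAs varied between experiments, and without experiment 2 that of hsa-miR-663a was turned, at 0.19.

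In all, 6 of the 10 members were lower in substate 2 in each of the 3 experiments, against 111 of the 474 tested miRNAs (23.4%), and 1 was higher in each, against 100 (21.1%). All members were detected on all 6 arrays, as were 289 of the 474. A miRNA at the common floor in both substates of an experiment has a difference of 0 there. It then counts as neither lower nor higher, so these shares are not a like base for the members. With the labelled amount as divisor all 10 had a mean difference below 0, as had the median of all tested miRNAs (-0.51), and 8 lay below that median. In the main scaling 7 were below 0 and 7 below the median of all. The counts with normexp, where the median of all was 0.39, were 5 below 0 and 9 below that median. The substate differences of hsa-miR-1915-3p and hsa-miR-1268a lay apart by 1.25, 0.86 and 1.03 log2 units in experiments 1, 2 and 3 and by 1.04 on average. With normexp background correction the gap was 0.55, and hsa-miR-1202 was then the lowest member at -0.22.

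**Figure D3:**
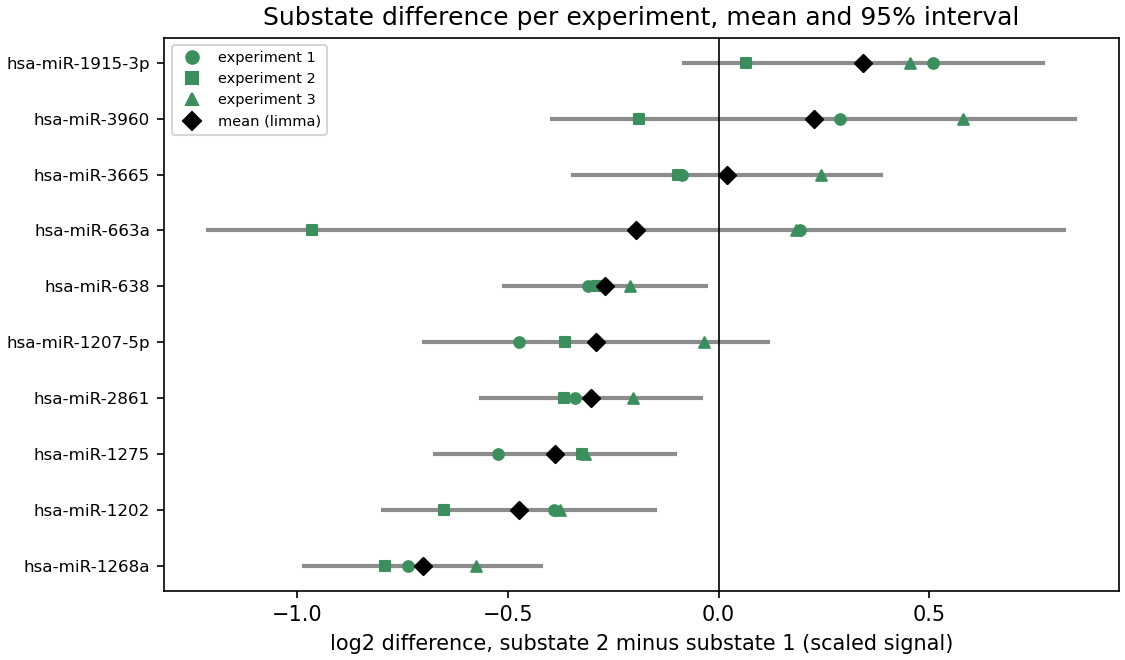
Log2 difference of scaled signal, substate 2 minus substate 1, for each GC-rich miRNA. Green symbols are the 3 experiments, black diamonds the mean and grey lines its 95% confidence interval from limma. In this scaling hsa-miR-1268a is lowest at -0.70 and hsa-miR-1915-3p highest at 0.34. With normexp they are at -0.14 and 0.40, and the median of all tested miRNAs is at 0.39.

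Each member was measured by 2 probes with 10 spots each, which share 1 hybridisation and are not replicates. Of 1200 member spots over the 6 arrays, 1181 were well above background (98.4%), and 0 were saturated. The spots not well above background belonged to the dimmer probes of hsa-miR-1275 and hsa-miR-663a, with 47 of 60 and 54 of 60 spots well above it. The coefficient of variation over the spots of a probe had a median of 3.73%. The error of the total signal given by the image software lay between 7.09% and 7.25% of the signal for hsa-miR-1202 and between 7.65% and 10.7% for hsa-miR-663a.

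Both probes of a miRNA gave the same sign of the mean difference for all 10 members, and the same sign within an experiment in 27 of 30 cases. The exceptions were hsa-miR-663a in experiments 1 and 3 and hsa-miR-1207-5p in experiment 3. The 2 probes of hsa-miR-1202 gave mean differences of -0.46 and -0.48, and those of hsa-miR-1915-3p gave 0.34 and 0.34. For hsa-miR-3960 they were 0.31 for the brighter and 0.09 for the dimmer probe. The brighter probe had the higher difference in 8 of the 10 members, and hsa-miR-1268a (-0.75 for the brighter and -0.52 for the dimmer probe) and hsa-miR-3665 were the exceptions. The median gap between the probes of a member was 0.15 log2 units and the largest, in hsa-miR-663a, was 0.40.

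**Figure D4:**
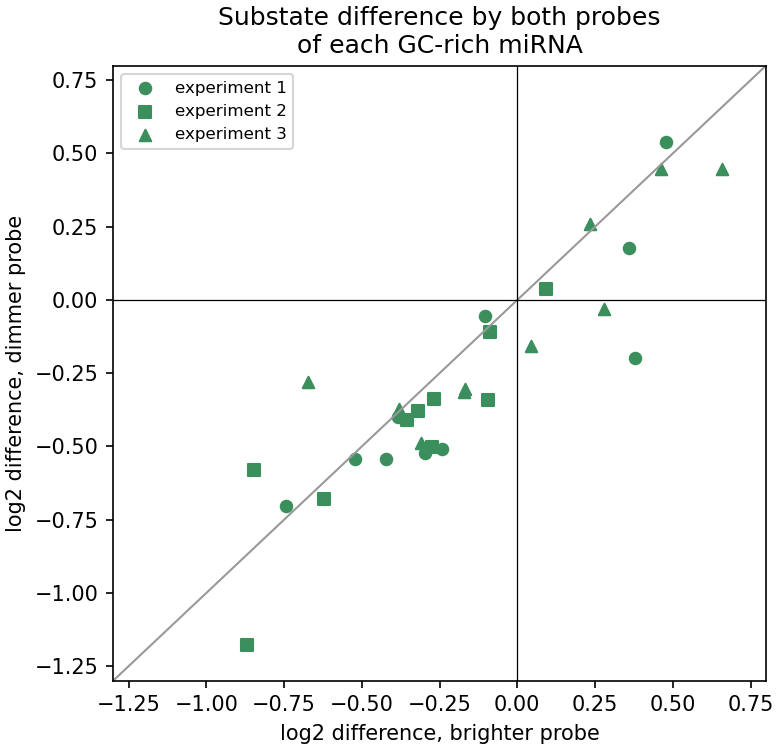
Log2 difference, substate 2 minus substate 1, by the brighter (x axis) and the dimmer probe (y axis) of each GC-rich miRNA, 1 point per experiment. The grey line marks equal values; 27 of 30 points have the same sign on both axes.

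G plus C content was set against signal and difference across 242 miRNAs detected on all 6 arrays that had a sequence, as a description over miRNAs that share arrays and are not independent. Spearman's correlation with mean log2 signal was 0.0996. With the substate difference it was -0.309, and -0.311 over the 234 miRNAs outside the list. By experiment it was -0.0941, -0.623 and -0.0609, so that the relation was seen in experiment 2 and hardly in experiments 1 and 3. The value was close to the same with and without the members.

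**Figure D5:**
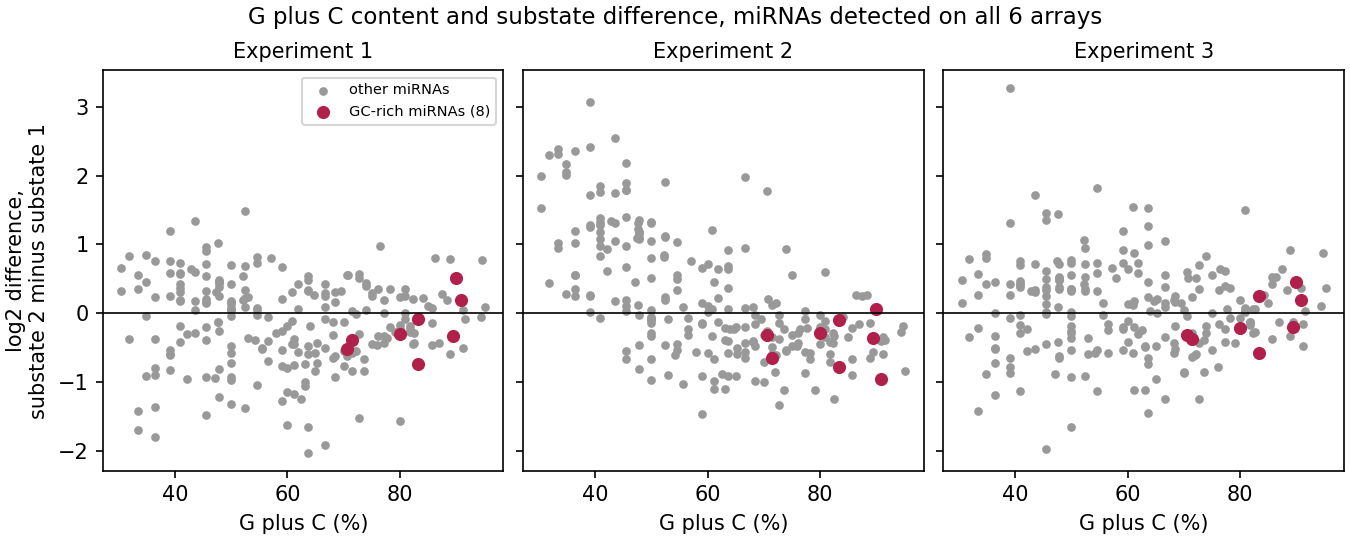
Substate difference (log2, substate 2 minus substate 1) against G plus C content (%) for 242 miRNAs detected on all 6 arrays, 1 panel per experiment; red points are the 8 GC-rich miRNAs with a sequence and grey points the others. miRNAs of low and high content separate in experiment 2 (Spearman's correlation -0.623) and hardly in experiments 1 and 3 (-0.0941 and -0.0609).

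Among the members the 3 sequences without GGCGG (hsa-miR-1202, hsa-miR-1268a and hsa-miR-1275) had a median difference of -0.47 (-0.52, -0.65 and -0.38 in experiments 1, 2 and 3), and the 5 with it had -0.20 (-0.09, -0.29 and 0.18). Among other miRNAs detected on all 6 arrays, the medians were -0.14 over 27 with the motif and -0.05 over 207 without. By experiment they were -0.06, -0.23 and 0.02 with the motif and -0.08, 0.05 and 0.12 without. For GGG, which all 8 member sequences hold, the medians over these other miRNAs were -0.17 over 128 with it (-0.19, -0.24 and -0.02 by experiment) and 0.25 over 106 without (0.09, 0.70 and 0.31).

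Another list of GC-rich miRNAs was set beside the members. Of its 24 miRNAs, 21 were detected on all 6 arrays and 22 were tested. At an unadjusted p under 0.05, 3 were lower (hsa-miR-572, hsa-miR-4281 and hsa-miR-4505), against 13.3% of all tested, and 1 higher (hsa-miR-4787-5p), against 9.7%, and 0 were called. Their median difference was -0.11. hsa-miR-4505 differed by -0.59 (limma adjusted p = 0.139) and hsa-miR-4787-5p by 0.53 (limma adjusted p = 0.203).

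The cluster of hsa-miR-302 and hsa-miR-367-3p, which is typical of human ES cells, had 8 of 10 miRNAs detected on all 6 arrays and 0 called. Its median difference was -0.33, and -0.59, 0.26 and -0.59 in experiments 1, 2 and 3. Experiment 2 thus stood apart for the cluster, whereas the members had -0.34 there. Of 22 early mirtrons, 10 were tested, with 2 higher (hsa-miR-1228-3p and hsa-miR-1238-3p) and 2 lower (hsa-miR-1225-5p and hsa-miR-1227-5p) at an unadjusted p under 0.05, 0 called, and a median of -0.10. Of 142 late annotated miRNAs, 30 were tested, with 0 higher and 4 lower at that p (hsa-miR-4449, hsa-miR-4478, hsa-miR-4505 and hsa-miR-4507), 0 called, and a median of -0.21. Over all tested miRNAs 9.7% were higher and 13.3% lower at that p.

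Markers of the cell type were read on the same arrays. Of 8 human ES cell miRNAs, 5 were detected on all 6 arrays, the brightest being hsa-miR-302a-3p on 3 arrays and hsa-miR-367-3p on the other 3, and hsa-miR-372-3p was detected on none. The summed signal of the detected ones was 5589 (4241 at the default spot size), 3031 and 2512 in substate 1 and 2185, 3408 and 1252 in substate 2. Of 4 neural miRNAs hsa-miR-124-3p and hsa-miR-128-3p were detected on all 6 arrays, with sums of 15.0 (11.4 at the default spot size), 10.4 and 5.27 in substate 1 and 9.39, 17.6 and 4.46 in substate 2, and both hsa-miR-9 arms were detected on none. After scaling, hsa-miR-124-3p differed by 0.38, 0.99 and 0.37, on average 0.58 (limma adjusted p = 0.215, unadjusted p = 0.0486), and hsa-miR-128-3p by -0.13, 1.22 and 0.09, on average 0.39 (limma adjusted p = 0.484). The 6 blood, 3 muscle and 1 liver miRNAs were detected on none. The endothelial hsa-miR-126-3p was detected on 3 arrays, and of 4 mesenchymal miRNAs hsa-miR-145-5p on 3 and hsa-miR-199a-3p on 1. The part of these cell types in the members' values was not tested.

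Profiles over the 6 arrays, each centred on its own mean, were compared by the root mean square (RMS) difference in log2 units, over 279 miRNAs outside the list. Nearest to hsa-miR-2861 was hsa-miR-6068 at 0.032, followed by hsa-miR-1227-5p at 0.077 and hsa-miR-6089 at 0.111, where the median over the 279 was 0.691. Nearest to hsa-miR-638 were hsa-miR-572, hsa-miR-1227-5p and hsa-miR-6068 at 0.089, 0.089 and 0.095. The profiles of hsa-miR-638 and hsa-miR-2861 thus had hsa-miR-6068 and hsa-miR-1227-5p in common, and their own difference was 0.106, the smallest of the 45 pairs of members.

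Nearest to hsa-miR-3960 were hsa-miR-7704, hsa-miR-6125 and hsa-miR-6789-5p at 0.127, 0.154 and 0.174. Its profile was closer to that of hsa-miR-1915-3p (0.132) than to that of its genomic neighbour hsa-miR-2861 (0.331). Nearest to the median profile of the members were hsa-miR-4466, hsa-miR-6088 and hsa-miR-6800-5p at 0.056, 0.067 and 0.081. The most distant members were hsa-miR-638 and hsa-miR-1268a, with an RMS difference of 0.813.
Sequences of some of the nearest miRNAs are given here, from the same source and with the seed in capitals, and these too are rich in G and C. Those of the other nearest miRNAs are not shown.
hsa-miR-572: gUCCGCUCggcgguggccca
hsa-miR-6068: cCUGCGAGucuccggcggugg
hsa-miR-7704: cGGGGUCGgcggcgacgug
hsa-miR-4466: gGGUGCGGgccggcgggg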

How the data were processed

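Exosomal miRNAs of H9 cells were hybridised in 1 colour to Agilent human miRNA arrays, 1 per substate in each of 3 experiments. The signal intensity deposited by the authors came from Agilent Feature Extraction 12.0.3.2 (experiment 1) and 11.5.1.1 (experiments 2 and 3), without scaling between arrays, and undetected miRNAs stood at 0.1. The log2 values deposited by the authors were made in GeneSpring, with a constant per array that exceeded the 99th percentile used here by a factor of 1.21 to 1.61; they served as an alternative. Column medians of these values ran from -12.7 to -10.9.

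Total signals were divided by each array's 99th percentile over 2549 human miRNAs and raised to a common floor (0.431% of that percentile). For the test, limma 3.58.1 in R 4.3.3 was run over 474 miRNAs with detection on 3 or more arrays. Experiments entered as blocks, p-values were adjusted by Benjamini-Hochberg, and the fit was checked on simulated data. The pairing follows the experiment numbers of the labels and the study's paired test. Deviations from the substate means correlated by 0.674, 0.0307 and 0.517 within experiments 1, 2 and 3. Spots marked as outliers were left out of spot-level values, a choice made after values had been seen, which does not touch the total signals. Python 3.11.15, pandas 2.3.3 and scipy 1.17.1 were used for the rest. Named miRNAs were the members, the 5 of best mean rank, the 3 nearest profiles of each of 4 targets, and list miRNAs where a count was small. Members and lists were chosen with earlier results of these data known. Alternatives covered scaling, floor, background, summary, filter, block, prior and test, and each experiment left out; counts at an unadjusted p and values at the default spot size, which divide the signals of substate 1 in experiment 1 by 1.32, were added after the data were seen.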

Additional observations from a re-analysis of the deposited data

How the results depend on the processing

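Calls over all tested miRNAs, 0 in either direction with limma, were 3 higher and 1 lower with normexp background correction, 5 and 2 over miRNAs detected on all 6 arrays, 0 and 1 with no replicate block, and 23 and 22 by the methods' paired t-test with Storey's q. Under the other planned settings they were 0 in either direction. The counts with Storey's q depend on the 2-fold filter applied before it and cannot be read as evidence of change. Of the members 0 were called under any setting, and in the paired t-test they could not be, as all were under 2-fold. With no replicate block no other call changed, and with the slide as a block there were 0 calls. The number of members lower at an unadjusted p under 0.05 was 5, and 6 with the labelled amount (6 at the default spot size), 4 with quantile normalisation, 2 with the 75th percentile, 2 with percent of summed signal, 1 with each array's own floor, 1 with median spot signals, 2 with normexp, 0 with the deposited values, 1 over miRNAs detected on all 6 arrays, 2 with no replicate block, 3 with trend and robust settings, and from 1 to 2 without 1 experiment. The number higher was 0, and 1 with quantile normalisation and 1 with normexp, and from 0 to 1 without 1 experiment. These counts were chosen after seeing the data. In the main scaling 63 of the 474 tested miRNAs were lower at that p (13.3%) and 46 higher (9.7%). Under the other settings the share over all tested was not computed, so the members' counts there cannot be set against it. The members' median difference, -0.28, was -0.84 when scaled by the labelled amount (-0.71 with every array at the default spot size, added after seeing the data) and -0.0699 with normexp, settings that put the median of all tested miRNAs at -0.51 and 0.39; relative to that median it was -0.33 and -0.46, and -0.15 with quantile normalisation and -0.20 with percent of summed signal, against -0.27 in the main scaling. The deposited values put the median of all tested at -0.12 and that of the members at -0.39. Of 170 differences of single members under alternatives, 11 changed sign: by the labelled amount hsa-miR-1915-3p (-0.22), hsa-miR-3665 (-0.54) and hsa-miR-3960 (-0.33), and at the default spot size -0.0845, -0.41 and -0.20; with normexp, which also gave hsa-miR-1268a -0.14, hsa-miR-663a (0.18) and hsa-miR-1275 (0.0031); with the deposited values hsa-miR-3665 (-0.0861); without experiment 3 hsa-miR-3665 (-0.0912, and up to 0.0783 without another experiment); and without experiment 2 hsa-miR-663a (0.19). Relative to the median of all tested, hsa-miR-1915-3p (0.29) and hsa-miR-3960 (0.18) stayed above 0 by the labelled amount. On that measure hsa-miR-663a (-0.21) and hsa-miR-1275 (-0.39) stayed below 0 with normexp. Signs did change for hsa-miR-3665 by the labelled amount (-0.029), and with normexp for hsa-miR-3665 (-0.26) and hsa-miR-3960 (-0.11). With normexp, limma adjusted p was 0.0446 for hsa-miR-1202, 0.0272 for hsa-miR-2861 and 0.0112 for hsa-miR-1915-3p, over ranges of 0.0446 to 0.406, 0.0272 to 0.805 and 0.0112 to 0.739. There hsa-miR-1915-3p lay 0.012 above the median of all tested. The mean share of the members was 5.76% in substate 1 and 5.92% in substate 2 without hsa-miR-8069, which follows from the smaller total. For the other changes the cause was not tested. Signal over background limits the dimmer probes of hsa-miR-1275 and hsa-miR-663a.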
